A study of Mus musculus with 12 samples.

Results

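The genes described here encode proteins that read CpG dinucleotides, either methylated or unmethylated: Mbd1, Mbd2 and Mbd3, Zbtb33, Zbtb4 and Zbtb38, and Cxxc1, Cxxc4 and Cxxc5. They were chosen by symbol and make up 9 of the 36521 gene rows and 142 of the 366995 exon bins of the deposited tables. RNA was sequenced from V6.5 cells, a mouse embryonic stem cell line grown with LIF, in 3 groups of 4 libraries that the labels call biological replicates. Tet1kd cells carried the stable vector pSUPER-puro-Tet1shRNA, Tet2kd cells carried pSUPER-puro-Tet2shRNA, and parental cells carried no knockdown vector. Knockdown cells were electroporated, selected with puromycin on SNL76/7-4 feeder cells and grown from singly picked clones. The sources used here do not give the number of clones behind each knockdown group. There were no libraries of cells with an empty vector or a control hairpin, so vector, selection, clone and knockdown cannot be told apart, and both knockdowns were set against the same parental libraries.

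Methylation of cytosine in CpG dinucleotides is read by several protein families. Mbd1 and Mbd2 bind methylated CpG through a methyl-CpG binding domain and recruit corepressors, whereas mammalian Mbd3 carries a related domain with little preference for methylated DNA. Mbd2 and Mbd3 are alternative subunits of the NuRD complex, which remodels nucleosomes and removes acetyl groups from histones, and Mbd3 is known from embryonic stem cells as a factor needed for normal differentiation. Zbtb33 (Kaiso), Zbtb4 and Zbtb38 reach methylated CpG through zinc fingers, and Zbtb33 also binds an unmethylated motif. Cxxc1 (Cfp1), Cxxc4 (Idax) and Cxxc5 bind CpG through a CXXC zinc finger that favours unmethylated DNA. Cxxc1 brings the SET1 histone H3 lysine 4 methyltransferases to CpG islands, and Cxxc4 and Cxxc5 also bind Dishevelled and act in Wnt signalling. Tet1 and Tet2, the targets of the hairpins, oxidize 5-methylcytosine.

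Promoter windows of 300 bases (250 before and 50 after the annotated start, RefSeq on GRCm38.p6) were matched for 5 of the 9 genes. Of these, 4 windows are shown because they belong to the 2 genes that fell in Tet1kd cells (Zbtb33 and Zbtb38), to the most abundant gene (Mbd3) and to the least abundant gene (Cxxc4). They are written 5′ to 3′ on the strand of the gene, with each CpG, the dinucleotide these proteins read, in capitals.
Zbtb33, chrX:38189543-38189842, + strand: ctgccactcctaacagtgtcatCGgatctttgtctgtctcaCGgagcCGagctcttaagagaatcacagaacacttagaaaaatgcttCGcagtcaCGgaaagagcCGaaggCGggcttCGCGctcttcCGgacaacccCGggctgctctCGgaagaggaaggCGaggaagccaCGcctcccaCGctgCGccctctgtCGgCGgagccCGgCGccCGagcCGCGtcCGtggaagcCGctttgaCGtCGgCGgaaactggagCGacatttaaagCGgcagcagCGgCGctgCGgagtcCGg
Zbtb38, chr9:96719801-96720100, - strand: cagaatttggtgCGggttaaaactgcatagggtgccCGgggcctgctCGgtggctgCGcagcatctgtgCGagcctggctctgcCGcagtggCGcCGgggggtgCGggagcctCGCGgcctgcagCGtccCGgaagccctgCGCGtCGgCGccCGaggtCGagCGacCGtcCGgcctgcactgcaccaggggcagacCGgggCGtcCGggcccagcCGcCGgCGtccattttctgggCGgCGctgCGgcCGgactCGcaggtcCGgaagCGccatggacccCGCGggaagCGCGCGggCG
Mbd3, chr10:80399482-80399781, - strand: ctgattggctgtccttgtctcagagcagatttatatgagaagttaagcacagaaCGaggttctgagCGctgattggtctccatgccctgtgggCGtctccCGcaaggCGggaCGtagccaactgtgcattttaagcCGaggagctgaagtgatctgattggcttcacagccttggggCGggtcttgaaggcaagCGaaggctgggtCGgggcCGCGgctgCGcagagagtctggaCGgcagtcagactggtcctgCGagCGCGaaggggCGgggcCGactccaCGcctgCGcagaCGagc
Cxxc4, chr3:134236245-134236544, + strand: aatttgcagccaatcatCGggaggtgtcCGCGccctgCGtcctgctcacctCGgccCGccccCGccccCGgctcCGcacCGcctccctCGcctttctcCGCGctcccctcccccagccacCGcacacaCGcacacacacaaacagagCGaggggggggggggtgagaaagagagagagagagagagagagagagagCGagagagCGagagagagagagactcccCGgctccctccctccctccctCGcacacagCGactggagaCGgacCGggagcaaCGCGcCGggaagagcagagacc
The Zbtb33 window held 34 CpG, the Zbtb38 window 41, the Mbd3 window 22 and the Cxxc4 window 26, against a median of 7 over all 32851 windows of the same length. Zbtb38 has 3 annotated windows, and the other two held 8 and 25 CpG. The Zbtb4 window, with 22 CpG, is not printed. The motifs linked to Zbtb33 that were searched, on both strands, were CGCG, whose adjacent CpG it binds when methylated, and TCCTGCNA. CGCG occurred in 5 of the 7 windows of these genes, the 4 printed ones among them, and in 38% of all windows. TCCTGCNA occurred in 1 of the 7, that of Mbd3, and in 4.96% of all windows. The motifs do not overlap each other. These matches describe the letters of the windows, and DNA methylation was not measured here.

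The deposited gene tables hold group means of normalized read counts, that is reads divided by a size factor for sequencing depth. Reads per library were recovered from those means as whole numbers, with all 9 genes resolved in all 12 libraries, and are given on the scale of the Tet1kd table. Libraries are lettered a to d within each group by size factor, since nothing ties them to the numbered samples. Estimated depth was 14.4 to 39.7 M reads per library, with a and b the deeper and c and d the shallower libraries of each group. This depth class was taken from the values and is not named in the labels. Deviations from the group mean were correlated between libraries of different groups, over recovered genes with a mean of at least 100. The correlation was 0.364 to 0.579 in the same depth class and -0.527 to -0.359 across classes. Because deviations are taken from the group mean, these ranges are not independent. Tet1 in Tet1kd cells was at 25.2% of its parental mean and Tet2 in Tet2kd cells at 50.9% of its parental mean. The embryonic stem cell markers were all present (10 of 10 genes, lowest mean 2857 normalized reads), with 5 called higher and 1 lower in Tet1kd and 1 higher and 0 lower in Tet2kd than in parental libraries. Of 20 feeder fibroblast markers, 2 were higher and 15 lower in Tet1kd than in parental libraries, and 6 were higher and 1 lower in Tet2kd than in parental libraries. Their level summed over 17 recovered genes was 11570 to 13620 in Tet1kd, 18120 to 20510 in Tet2kd and 15820 to 18160 in parental libraries. None of the 20 was at 0 in any group. Lum, Fap, Dcn and Mmp3 had Tet1kd means of 0.414, 0.276, 7.71 and 15.9 normalized reads. Timp1 and Col5a1, the 2 called higher in Tet1kd, had means of 1578 and 1076 there, against 1092 and 807 in parental libraries. In such bulk samples, fewer cells of a type and less RNA per cell cannot be told apart. The part of feeder RNA in the results below was not tested.

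The genes differed widely in level. Per kilobase of exon (exon length from GRCm38), Mbd3 was the highest in every group, at 1181 ± 234 in Tet1kd, 1356 ± 283 in Tet2kd and 1406 ± 235 in parental libraries (normalized reads per kb, SD, n = 4). Cxxc5 came second, at 631 ± 31.0 in Tet1kd, 636 ± 39.6 in Tet2kd and 544 ± 34.4 in parental libraries. Cxxc1 followed at 263 ± 41.9 in Tet1kd, 328 ± 53.8 in Tet2kd and 306 ± 43.9 in parental libraries. Zbtb33 and Mbd2 had overlapping libraries in Tet2kd and parental cells, where Zbtb33 averaged 191 and 209 and Mbd2 177 and 202 normalized reads per kb. In Tet1kd libraries this pair separated, with Mbd2 at 212 ± 23.9 and Zbtb33 at 144 ± 25.3, no library overlapping, and Mbd2 there overlapped Cxxc1. Zbtb38 and Mbd1 likewise overlapped in Tet1kd libraries, at 76.7 ± 2.16 and 74.5 ± 11.9, and did not overlap in Tet2kd libraries (92.2 and 50.3) or in parental libraries (99.1 and 62.9). Zbtb4 was low in all groups, at 8.17, 8.83 and 6.23 normalized reads per kb in Tet1kd, Tet2kd and parental libraries. Cxxc4 was the lowest, at 0.0648 in Tet1kd, 0.376 in Tet2kd and 0.139 in parental libraries. The Zbtb38 row is merged in the deposited tables with a second gene identifier (ENSMUSG00000048790), so its reads cannot be divided between the genes, and its length is that of Zbtb38 alone.

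**Figure D1:**
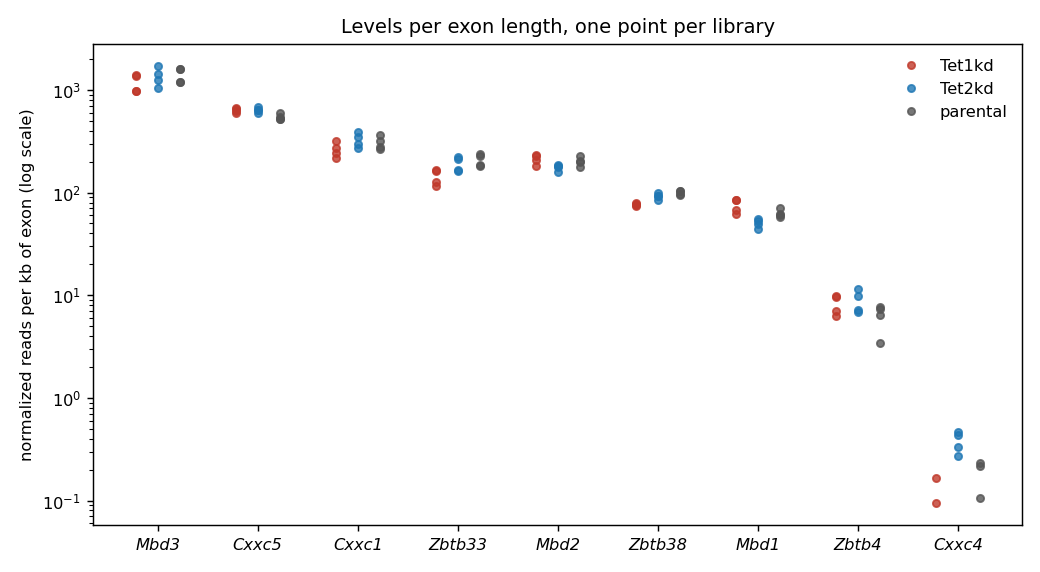
Normalized reads per kb of exon on a log scale, one point per library, for Tet1kd, Tet2kd and parental cells, with the genes ordered by parental mean. Cxxc4 libraries without a read (2 of Tet1kd, 1 of parental) have no place on a log axis and are not drawn, and the levels run from 1406 (Mbd3) down to 0.139 (Cxxc4) in parental means.

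In Tet1kd cells, Zbtb33 and Zbtb38 fell and Cxxc5 rose relative to parental cells. These are 3 of 9 genes called at an adjusted p of 0.05 in the first of the authors' 2 deposited tests, against 30.4% of all 23120 genes called there (15.2% higher, 15.3% lower). The median deposited log2 difference was -0.22 over the 9 genes and -0.02 over all genes, and in Tet2kd cells it was -0.05 over the 9 genes and 0.00 over all genes. In Tet2kd cells 0 of 9 genes were called by the first deposited DESeq test, against 7.14% of all 22949 genes. At an unadjusted p under 0.05 there were 2 of the 9 in Tet2kd cells (Mbd1 and Cxxc5), against 17.5% of all genes, and these same 2 were called by the second deposited test, which called 18.2% of all genes. In Tet1kd cells the second test called 5 of 9, against 39.2% of all genes, adding Mbd3 and Cxxc1. limma, fitted on the recovered libraries with genes of mean 10 or more, called 3 of 8 genes in Tet1kd (54.9% of all genes) and 1 of 8 in Tet2kd (19.7% of all genes). With so few genes, these shares lay on both sides of those among all genes.

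Zbtb33 (Kaiso, ENSMUSG00000048047, chromosome X) represses methylated promoters by recruiting corepressors. Its normalized counts were 838, 854, 598 and 651 in Tet1kd libraries a to d, 1078, 1149.6, 839 and 849.6 in Tet2kd libraries, and 1217, 1176, 919 and 959 in parental libraries. Every Tet1kd library was below every parental library, while Tet2kd libraries overlapped with parental ones over all libraries and lay below them within each depth class. In the authors' deposited table Zbtb33 in Tet1kd was at 68.8% of parental (log2 difference -0.54, adjusted p 0.00691, DESeq). The limma estimate was -0.54 ± 0.13 (SE, adjusted p 0.00286). In Tet2kd the deposited log2 difference was -0.13 with an adjusted p of 0.865, and the limma 95% interval ran from -0.42 to 0.16 (adjusted p 0.0516 with depth class as a term). Among deeper libraries alone and among shallower libraries alone the Tet1kd values again lay below the parental values, with differences of -0.50 and -0.59. Chromosome X genes as a whole had a median log2 difference of -0.11 in Tet1kd against parental (605 genes with a mean of at least 10), with 14.2% called higher and 23.6% lower, against 22.7% and 22.1% over all chromosomes. On GRCm38, 474 exonic bases of Zbtb33 (9.25% of its exon length) are shared with Tmem255a on the opposite strand, and whether reads were counted by strand was not stated. Tmem255a itself averaged 1.26 normalized reads in Tet1kd and 2.06 in parental cells in the authors' deposited table.

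Zbtb38 (ENSMUSG00000040433, chromosome 9), a zinc finger protein that binds methylated CpG and is known in mouse as Cibz, had the smallest adjusted p of the 9 genes in the first deposited test, and Zbtb33 in the second (2.793e-08 for Zbtb38 and 2.167e-14 for Zbtb33, both in Tet1kd). Its normalized counts were 890.5, 869.5, 926 and 915 in Tet1kd, 1077, 1169.8, 1085 and 995 in Tet2kd, and 1209, 1204, 1130.3 and 1109 in parental libraries. Libraries of a group lay close together, and all Tet1kd values were below all others. Per the authors' deposited table, Zbtb38 in Tet1kd was at 77.4% of parental (log2 difference -0.37, adjusted p 0.000288, DESeq), and limma gave -0.37 ± 0.06 (SE, adjusted p 0.000105). In Tet2kd it was at 93.0% of parental with an adjusted p of 0.679 in the authors' deposited table, and its Tet2kd libraries were below the parental ones within each depth class (limma adjusted p 0.120 with depth class as a term). The difference in Tet1kd was -0.45 in the deeper and -0.28 in the shallower libraries.

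Zbtb4 (ENSMUSG00000018750, chromosome 11), which represses genes with methylated promoters, was counted with 311 reads in the Tet1kd libraries together, 271 in Tet2kd and 217 in parental. Its normalized counts were 79.4, 50.7, 78.6 and 56.6 in Tet1kd, 57.9, 92.7, 80.1 and 56.1 in Tet2kd, and 62.5, 59.5, 52.4 and 27.8 in parental libraries. The groups overlapped, with 1 parental library (d) below the rest. The deposited log2 difference was 0.39 in Tet1kd (adjusted p 0.491) and 0.50 in Tet2kd (adjusted p 0.563). The limma 95% intervals, -0.13 to 0.98 in Tet1kd and -0.02 to 1.09 in Tet2kd, were wide and both included 0.

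**Figure D2:**
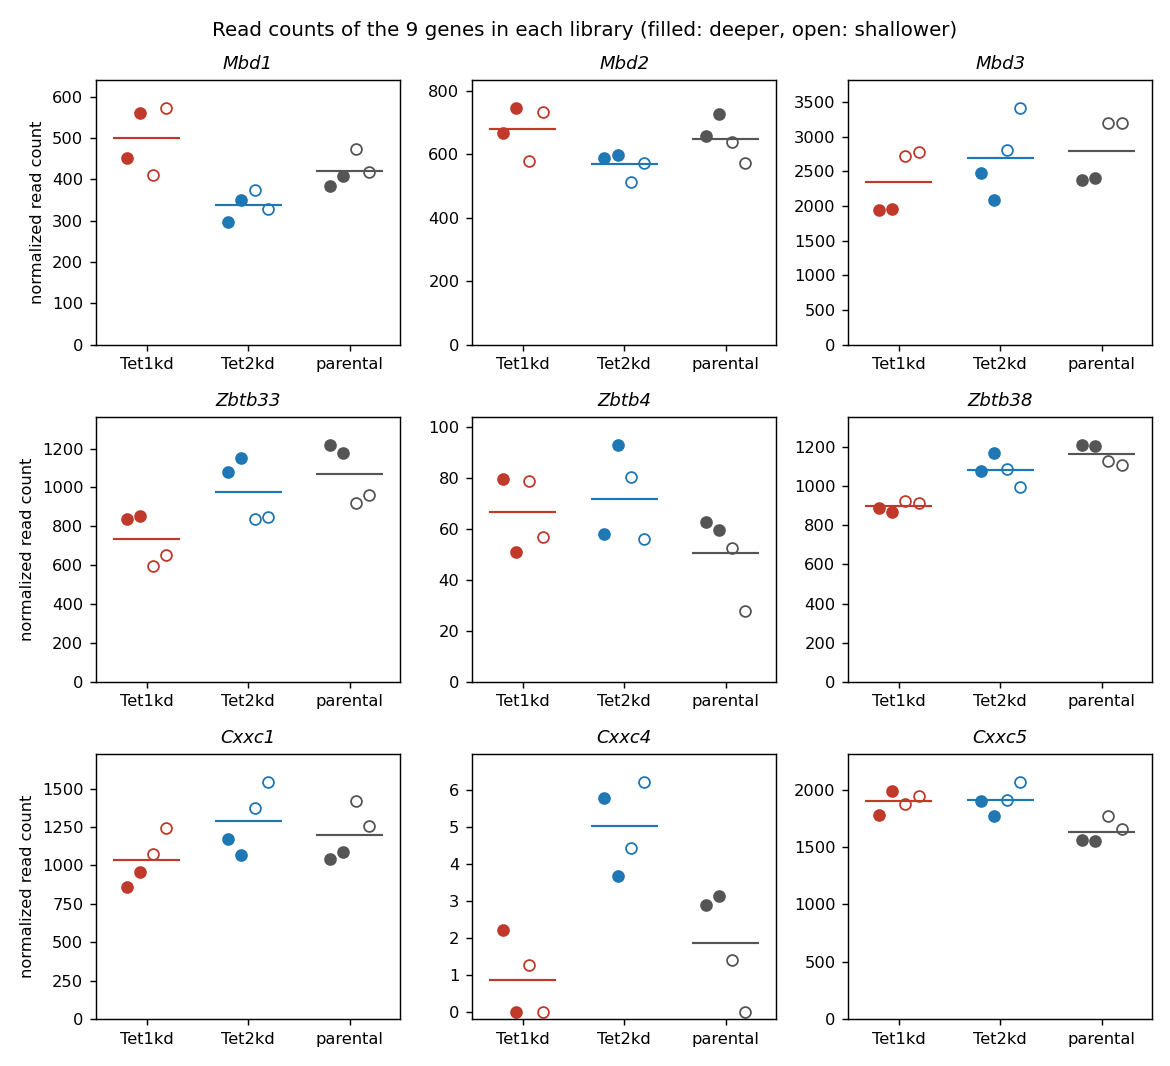
Normalized read count of each gene in each library of Tet1kd (red), Tet2kd (blue) and parental (grey) cells, with the mean as a line; filled points are the deeper libraries a and b and open points the shallower libraries c and d. Zbtb33 and Zbtb38 lie lower in all 4 Tet1kd than in all 4 parental libraries, and Mbd3, Cxxc1 and Zbtb33 separate by depth class in every group.

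Mbd1 (ENSMUSG00000024561, chromosome 18), which binds methylated CpG and recruits a histone H3 lysine 9 methyltransferase, lay above parental cells in Tet1kd and below them in Tet2kd by its mean, and neither passed the first test. Its normalized counts were 453, 561, 412 and 573 in Tet1kd, 297, 350.5, 374 and 329 in Tet2kd, and 384, 409, 475 and 418 in parental libraries. All Tet2kd libraries were below all parental and all Tet1kd libraries, and Tet1kd and parental libraries overlapped. The deposited log2 difference was 0.25 in Tet1kd (adjusted p 0.183) and -0.32 in Tet2kd (adjusted p 0.0900). The second deposited test gave an adjusted p of 0.228 in Tet1kd and 0.0104 in Tet2kd. limma gave 0.0891 in Tet1kd and 0.0579 in Tet2kd. In limma fits that each left out 1 library, the Tet1kd adjusted p ran from 0.0234 to 0.253. Only the fit without Tet1kd library c passed. Mbd1 was the 1 of 8 genes with a mean of 10 or more whose Tet2kd and parental libraries did not overlap, against 23.2% of all such genes. For Tet1kd against parental the same count was 3 of 8 (Zbtb33, Zbtb38 and Cxxc5), against 48.9% of all such genes.

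Mbd2 (ENSMUSG00000024513, chromosome 18), the methyl-CpG binding subunit of NuRD, had normalized counts of 668, 746, 578 and 733 in Tet1kd, 589, 599, 511 and 574 in Tet2kd, and 658, 726, 639 and 571 in parental libraries. The groups overlapped in both comparisons with parental cells. The deposited log2 difference was 0.07 in Tet1kd (adjusted p 0.921) and -0.19 in Tet2kd (adjusted p 0.311). The limma 95% interval was -0.13 to 0.27 in Tet1kd and -0.39 to 0.01 in Tet2kd.

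Mbd3 (ENSMUSG00000035478, chromosome 10), the alternative to Mbd2 in NuRD, had normalized counts of 1938, 1949.9, 2720.3 and 2777 in Tet1kd, 2470.7, 2085, 2809 and 3409 in Tet2kd, and 2379, 2398, 3201 and 3194 in parental libraries. Depth class separated these values in every group: the shallower libraries averaged 141%, 137% and 134% of the deeper ones in Tet1kd, Tet2kd and parental cells. Within each class both Tet1kd libraries were below both parental libraries. Over all libraries the deposited log2 difference in Tet1kd was -0.25 with an adjusted p of 0.393 in the first test and 1.345e-07 in the second. With depth class as a term, limma gave -0.26 ± 0.05 (SE, adjusted p 0.000100), against an SE of 0.15 without it (adjusted p 0.171). In Tet2kd the deposited log2 difference was -0.05 (adjusted p 1), and the adjusted p with depth class as a term was 0.376.

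Cxxc1 (Cfp1, ENSMUSG00000024560, chromosome 18), the CpG-binding subunit of the SET1 complex, varied with depth class in the same way. Its normalized counts were 861, 955, 1077 and 1242 in Tet1kd, 1171, 1069, 1376 and 1542 in Tet2kd, and 1042, 1086, 1418 and 1257 in parental libraries. The shallower libraries averaged 128%, 130% and 126% of the deeper ones in Tet1kd, Tet2kd and parental cells, and Cxxc1 and Mbd3 correlated at r = 0.91 over the 12 libraries, which share this split by depth class. How far the split sets that value was not tested. The deposited log2 difference was -0.22 in Tet1kd (adjusted p 0.361 in the first test and 0.0207 in the second) and 0.10 in Tet2kd (adjusted p 0.933 and 0.432). Within each class the Tet1kd libraries lay below the parental ones, and with depth class as a term limma gave an adjusted p of 0.00213 for Tet1kd and 0.193 for Tet2kd. Zbtb33 showed the opposite split, its shallower libraries averaging 73.9%, 75.8% and 78.5% of the deeper ones in Tet1kd, Tet2kd and parental cells.

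With depth class as a term, a choice made after the values were seen, 6 of 8 genes were called in Tet1kd (64.6% of all genes) and 3 of 8 in Tet2kd (35.5% of all genes). Mbd1, Mbd3 and Cxxc1 were called beside Zbtb33, Zbtb38 and Cxxc5 in Tet1kd, and the 3 in Tet2kd were Mbd1, Mbd2 and Cxxc5. Counted without a fit, 5 of 8 genes in Tet1kd (Mbd3, Zbtb33, Zbtb38, Cxxc1 and Cxxc5, 63.4% of all genes) and 4 of 8 in Tet2kd (Mbd1, Zbtb33, Zbtb38 and Cxxc5, 39.9% of all genes) had libraries that did not overlap with parental ones in the deeper and in the shallower class alike. What the depth classes stand for was not tested.

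Cxxc5 (ENSMUSG00000046668, chromosome 18), a CXXC protein that binds Dishevelled, was higher in Tet1kd cells by the first deposited test, with a mean of the same size in Tet2kd cells. Its normalized counts were 1778, 1990.3, 1873 and 1949 in Tet1kd, 1904, 1773, 1908 and 2064 in Tet2kd, and 1559, 1553, 1773 and 1655 in parental libraries. All Tet1kd libraries exceeded all parental ones, though Tet1kd library a (1778) and parental library c (1773) differed little, and 1 Tet2kd library (b) was below parental library c. The authors' deposited table gave a log2 difference of 0.21 in Tet1kd (adjusted p 0.0422, DESeq) and of 0.23 in Tet2kd (adjusted p 0.0860). Only the Tet1kd difference passed the first test, while the second deposited test called both (0.000124 and 8.72e-05) and so did limma (0.00782 and 0.0180). In limma fits that each left out 1 library, the Tet2kd adjusted p ran from 0.0110 to 0.0581, and the call was lost without Tet2kd library d, parental library a or parental library b. The shallower libraries alone gave Tet1kd an adjusted p of 0.0629. Since both comparisons use the same parental libraries, the 2 differences are not independent.

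Cxxc4 (Idax, ENSMUSG00000044365, chromosome 3), an inhibitor of Wnt signalling through Dishevelled and known to bind Tet2, was nearly silent. It had 4, 0, 1 and 0 reads in Tet1kd libraries a to d, 8, 4, 3 and 4 reads in Tet2kd, and 4, 4, 1 and 0 reads in parental libraries. All Tet2kd libraries had reads, and per size factor all were above all other libraries. The summed reads, scaled by size factor, gave a ratio of 0.486 for Tet1kd against parental (exact 95% interval 0.128 to 1.62) and of 2.24 for Tet2kd against parental (0.965 to 5.62), intervals that cover counting error only. Neither deposited difference passed the test (adjusted p 0.830 in Tet1kd and 0.733 in Tet2kd). With means under 10 it was left out of the limma fit. On GRCm38, Cxxc4 shares 243 exonic bases (1.81% of its exon length) with Gm26691 and 79 (0.59%) with Mir1895. Both lie on the opposite strand, and whether reads were counted by strand was not stated.

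The 2 knockdowns were compared directly with limma on the recovered libraries, in which parental libraries entered through the common scale and the shared variance. Of these genes, 4 of 8 genes differed, against 51.2% of all 14177 genes tested: Mbd1 and Mbd2 were higher in Tet1kd than in Tet2kd cells, and Zbtb33 and Zbtb38 were lower. Mbd1 averaged 499.6 ± 79.6 normalized reads in Tet1kd and 337 ± 32.7 in Tet2kd (SD, n = 4 each), a log2 difference of 0.56 ± 0.11 (SE, limma adjusted p 0.000683) with no overlap of libraries. Mbd2 averaged 681 ± 76.8 in Tet1kd and 568 ± 39.3 in Tet2kd, a log2 difference of 0.26 ± 0.09 (limma adjusted p 0.0321). Zbtb33 averaged 735 ± 129.6 in Tet1kd and 979 ± 158 in Tet2kd, a log2 difference of -0.42 ± 0.13 (limma adjusted p 0.0171). Zbtb38 averaged 900.2 ± 25.3 in Tet1kd and 1082 ± 71.6 in Tet2kd, a log2 difference of -0.26 ± 0.06 (limma adjusted p 0.00208), again with no overlap. Such separation was seen for 2 of 8 genes and for 45.0% of all genes. The Mbd2 call was lost without Tet1kd library b or d or Tet2kd library c or d (adjusted p up to 0.0995), and the Zbtb33 call without Tet1kd library c or d or Tet2kd library a or b (adjusted p up to 0.0636). Cxxc1 was just short of the threshold, with a log2 difference of -0.32 ± 0.13 and a limma adjusted p of 0.05001. Without Tet1kd library d or Tet2kd library a or b it passed (adjusted p 0.0159 to 0.0495). Cxxc5 had a log2 difference of -0.01, with a 95% interval of -0.14 to 0.12. For Mbd3 and Zbtb4 the intervals were -0.53 to 0.13 and -0.66 to 0.45. With depth class as a term 6 of 8 genes differed (62.1% of all genes), Mbd3 and Cxxc1 being added, and 6 of 8 did not overlap within both depth classes (59.0% of all genes). Cxxc4, outside the fit, had 5 reads in Tet1kd and 19 in Tet2kd, a ratio of 0.217 (exact 95% interval 0.0634 to 0.602, counting error only).

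**Figure D3:**
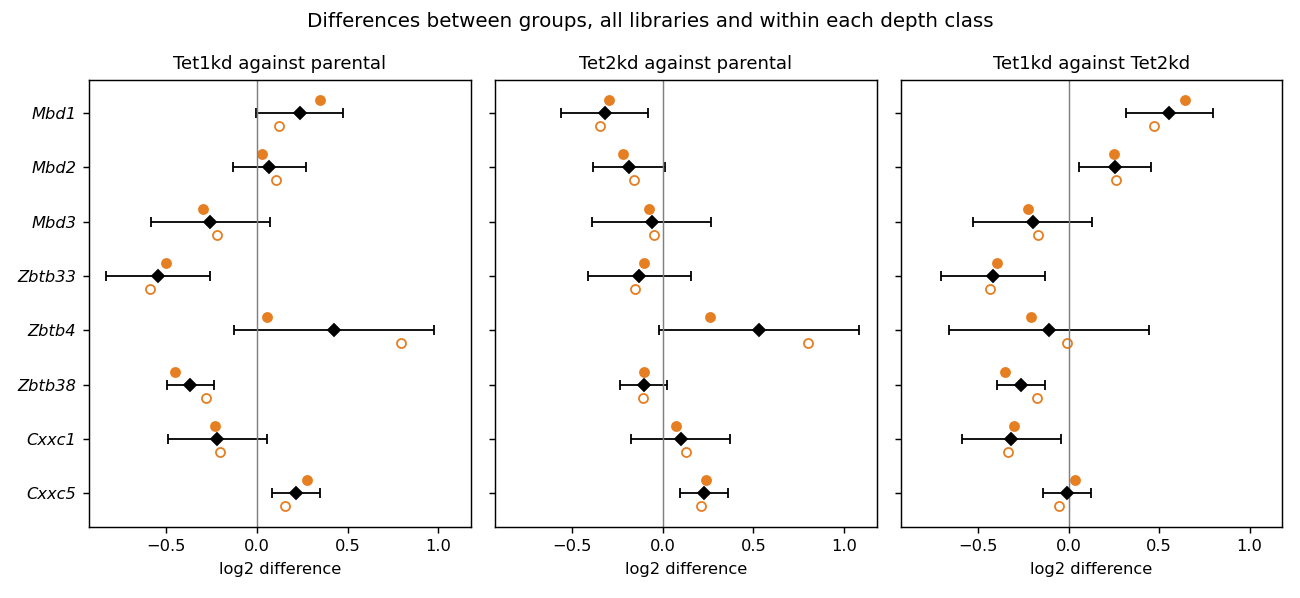
Log2 difference of 8 genes for Tet1kd against parental, Tet2kd against parental and Tet1kd against Tet2kd. Black diamonds with bars are the limma estimate over all libraries and its 95% interval, filled orange points the deeper and open orange points the shallower libraries alone; Zbtb33 is below 0 in both classes for Tet1kd against parental (-0.50 and -0.59), and Cxxc4, with a mean under 10, is not drawn.

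Exon bins are stretches of exon counted separately, and their use is the level of a bin relative to the rest of its gene, as tested by DEXSeq in the deposited exon tables. In Tet1kd cells 3 of the 98 tested bins of these genes were called at an adjusted p of 0.05, against 2.56% of all 195843 bins, and all 3 lay in Mbd2. Bins E008 (adjusted p 0.0285) and E009 (adjusted p 0.00406) were used less, and bin E010 (adjusted p 0.00976) was used more, in Tet1kd than in parental cells. These are neighbouring bins of a gene whose total count was not called. The next bin, E011, was on the higher side like E010 and just short of the threshold (adjusted p 0.0519). In Tet2kd none of these 3 was called, with DEXSeq adjusted p of 0.843, 0.482 and 0.264. The deposited ratio of E010 was again on the higher side, and those of E008 and E009 were above 0, where those in Tet1kd were below 0. Whether the bins differed between the knockdowns was not tested. In Tet2kd 1 of 97 tested bins was called, against 2.45% of all 193091 bins. This was bin E012 of Mbd1, used less in Tet2kd than in parental cells (adjusted p 0.0447, mean 15.3 normalized reads), and its adjusted p in Tet1kd was 0.946. Sizes are as deposited, in the direction of knockdown over parental, and only their directions are read.

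The other genes had no called bin. Their tested bins in Tet1kd, leaving out Mbd2, numbered 83, with 0 called by DEXSeq, against 2.56% of all bins. In Tet2kd, leaving out Mbd1, 79 bins were tested, with 0 called, against 2.45% of all bins. The bin nearest to a call was E012 of Zbtb38 in Tet2kd (adjusted p 0.0551), with a mean of 3.47 normalized reads. In Tet1kd it was E028 of Zbtb38 (adjusted p 0.103), with a mean of 1.55. The smallest adjusted p was 0.320 for Mbd3 (E007), 0.232 for Zbtb33 (E007), 0.307 for Zbtb4 (E023), 0.211 for Cxxc1 (E004), 0.405 for Cxxc5 (E003) and 0.444 for Mbd1 (E015) in Tet1kd. In Tet2kd it was 0.193 for Mbd2 (E018), 0.169 for Mbd3 (E010), 0.658 for Zbtb33 (E007), 0.487 for Zbtb4 (E015), 0.348 for Cxxc1 (E008) and 0.408 for Cxxc5 (E003). Cxxc4 had 5 bins, none of them tested in either table.

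**Figure D4:**
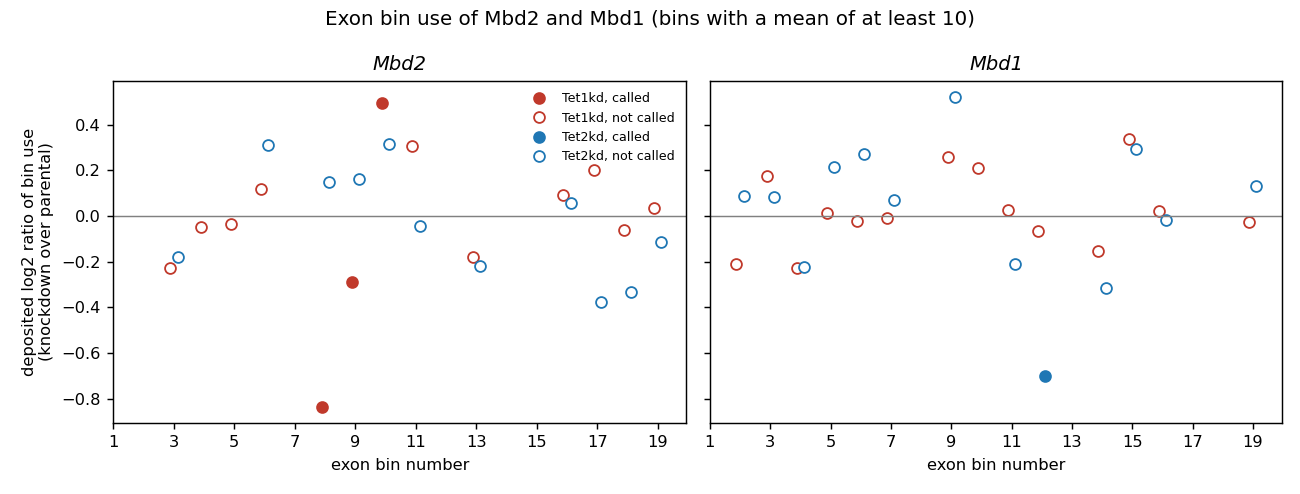
Deposited log2 ratio of bin use, knockdown over parental, along the bins of Mbd2 and Mbd1 with a mean of at least 10 normalized reads, for Tet1kd (red) and Tet2kd (blue); filled points have an adjusted p under 0.05. The called bins are E008 to E010 of Mbd2 in Tet1kd and E012 of Mbd1 in Tet2kd.

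Genes that work with these proteins are given by the deposited log2 difference and adjusted p of the first test. Of 12 genes of the NuRD complex, in which Mbd2 and Mbd3 take part, 2 rose and 4 fell in Tet1kd. Mta1 (0.45, adjusted p 1.599e-06) and Mta3 (0.42, 8.608e-06), metastasis-associated subunits, rose. The remodelling ATPase Chd3 (-0.48, 0.000376) and the histone-binding protein Rbbp7 (-0.54, 0.000586) fell. In Tet2kd 0 of 12 were called by DESeq (7.14% of all genes), the smallest adjusted p being that of Chd4 (0.134). At an unadjusted p under 0.05 there were 3 (17.5% of all genes), and the second deposited test called 6 (18.2% of all genes). The median log2 difference of the 12 was -0.16 in Tet1kd and -0.01 in Tet2kd.

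Of 8 genes of the SET1 complex, the partner of Cxxc1, 1 rose and 3 fell in Tet1kd. Wdr5, a scaffold subunit, rose (0.23, adjusted p 0.0163). Hcfc1 (-0.39, 1.62e-05), Ash2l (-0.24, 0.0174) and the methyltransferase Setd1b (-0.43, 0.0200) fell. In Tet2kd 0 of 8 were called by DESeq (7.14% of all genes). At an unadjusted p under 0.05 there were 2 in Tet2kd (17.5% of all genes), and the second test called 3 (18.2% of all genes). Setd1b had a log2 difference of -0.42 there, with an adjusted p of 0.0720. The median log2 difference of the 8 was -0.17 in Tet1kd and -0.02 in Tet2kd.

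Of 9 genes for corepressors and other partners linked to Mbd1 and Zbtb33, 3 rose and 1 fell in Tet1kd. Among those that rose were Tbl1xr1 (0.45, adjusted p 4.048e-06), a subunit of histone deacetylase corepressor complexes, and Atf7ip (0.33, 0.00123), the partner through which Mbd1 reaches Setdb1. Ctnnd1 (p120 catenin, the protein through which Kaiso was identified) fell (-0.23, 0.0231). In Tet2kd 2 of the 9 rose and 0 fell, Tbl1xr1 (0.37, 0.000541) being among those that rose. The median log2 difference of the 9 was 0.02 in Tet1kd and -0.07 in Tet2kd.

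Of 11 Wnt components tied to Cxxc4 and Cxxc5, 5 rose and 2 fell in Tet1kd. The transcription factor Lef1 rose (1.39, adjusted p 3.739e-32), as did Nkd2 (1.01, 2.851e-07) and Dvl2 (0.37, 0.00247), which is a Dishevelled gene in a row merged with another identifier. Axin2, a widely used Wnt target, fell (-1.34, 3.913e-32). In Tet2kd 1 of 11 was called, Lef1 (0.77, 8.901e-09). The median log2 difference of the 11 was 0.17 in Tet1kd and 0.01 in Tet2kd.

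Of the 8 other genes with a methyl-CpG binding domain, 1 rose and 1 fell in Tet1kd: Baz2b (0.88, adjusted p 2.451e-21) and Mbd5 (-0.53, 0.000148). In Tet2kd 0 of 8 were called by DESeq. At an unadjusted p under 0.05 there was 1 (17.5% of all genes), and the second test called 1 (18.2% of all genes). Of 8 other CXXC domain genes, 1 rose and 2 fell in Tet1kd, the 2 that fell being the targeted Tet1 itself and Kdm2a (-0.35, 0.000318), a histone demethylase recruited to CpG islands, and the one that rose being Tet3 (0.83, 6.45e-09). In Tet2kd Kdm2a fell (-0.30, 0.00519) and none rose. The median log2 difference was -0.05 in Tet1kd and -0.02 in Tet2kd for the methyl-CpG binding domain genes, and 0.11 in Tet1kd and -0.04 in Tet2kd for the CXXC genes. The shares of these lists are to be read against the 30.4% of all genes called in Tet1kd and 7.14% in Tet2kd. Those shares, of the first test, include genes with few reads. Among genes with a mean of at least 10, 22.7% were called higher and 22.1% lower in Tet1kd. In Tet2kd 5.81% of such genes were called higher and 4.92% lower. Setdb1 counts in 2 of the lists.

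For Zbtb38, the gene with the smallest adjusted p in the first deposited test, the most similar profiles were sought by Pearson correlation of log2 counts over the 12 libraries among 10288 genes with a mean of at least 100. They were those of Eif3j1 (r = 0.973), She (0.966) and Hnrnpll (0.961). Eif3j1 had 183 to 203 normalized reads in Tet1kd, 229 to 292 in Tet2kd and 256 to 309 in parental libraries. Their deposited log2 differences in Tet1kd were -0.57, -0.75 and -0.42, and in Tet2kd -0.14, -0.27 and -0.08. Group differences enter r, so a similar pattern over the groups follows from how these genes were picked. Of the 9 genes, Zbtb33 was the one closest to Zbtb38 over the same libraries (r = 0.79), and group differences enter this r as well.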

How the data were processed

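Poly(A)-selected RNA of V6.5 cells was prepared for SOLiD sequencing, per the labels' protocols, and the submitters' processing notes name TopHat2 (version 2.0.0), SAMtools (version 0.1.18), DESeq (no version) and the builds mm9 and NCBIM37. Aligner settings, counting rule and use of strand were not stated in these sources. Per the file headers, the authors deposited for each gene a mean signal per group (normalized count), the ratio of knockdown to parental (fold), the log2 of that ratio, and raw and adjusted p-values of 2 tests. The second test is a generalized linear model, and its terms were not stated either. Per the file headers, the exon tables hold a mean signal per bin, a dispersion score, raw and adjusted p-values, and a log2 ratio (parental over knockdown, printed here with the opposite sign). The parental shares of bins computed from the 2 tables differed least when the deposited ratio was multiplied by 2, the largest factor tried. The median absolute deviation was 0.0106, against 0.0522 unmultiplied. The deposited sizes may thus be smaller than the log2 change in bin share, and they are printed as deposited.

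Gene names and exon lengths come from GENCODE and RefSeq tables on GRCm38, matched by Ensembl ID, and no coordinates were carried between builds. Reads per library were recovered from the group means up to 10000, since a mean of 4 whole numbers over 4 size factors takes only certain values. A gene was kept where 1 set of reads, each within 60% of the mean (at least 25 reads, a limit raised after a first run, or 20% where several sets matched), gave the deposited digits. This resolved 20174 of 21658 Tet1kd, 20065 of 21368 Tet2kd and 21258 of 22004 parental genes with reads. Of 21175 parental genes answered from 1 table and from both, 21174 agreed. Tet2kd libraries were moved to the scale of the Tet1kd table by the parental size factors of both tables.

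The main test was the first deposited adjusted p at 0.05, for genes and for bins. limma (version 3.58.1, R 4.3.3, trend) used log2(normalized count + 0.5) over all 12 libraries and genes with a mean of at least 10, and gave the Tet1kd against Tet2kd test. Its differences are between group means of these log2 values. edgeR and DESeq2 were planned for recovered reads and not run, since the tables hold no counts per sample. The fit was run on simulated data with the same dispersion for every gene and no depth class effect. In Tet1kd it recovered 93 of 99 genes changed by a log2 of 1, and 61 of 100 changed by 0.5. In Tet2kd it recovered 94 of 99 and 63 of 100. Most differences of the 9 genes were smaller than 0.5, and the real spread by depth class was not simulated. Named genes were the 9 members, up to 4 genes per list and comparison with the smallest deposited adjusted p, the bin with the smallest adjusted p of each member, and 3 similar genes. Some genes that this rule names are not reported here. Members and lists were chosen with earlier results of these data known. Nothing but the labels says that replicates are separate cultures, so p-values measure the spread between these libraries.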

Additional observations from a re-analysis of the deposited data

Results flagged for a closer look

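Mbd1, Mbd2, Zbtb33 and Zbtb38 were picked out by the limma test of Tet1kd against Tet2kd. By that test their difference from parental cells was not the same in the 2 knockdowns. It called these 4 of 8 genes and 51.2% of all 14177 genes. The Mbd2 and Zbtb33 calls were each lost in 4 of the 8 fits that left out 1 library. The log2 difference was 0.56 for Mbd1 and 0.26 for Mbd2, both higher in Tet1kd, and -0.42 for Zbtb33 and -0.26 for Zbtb38, both lower in Tet1kd. Among 27 checks for a library standing apart from its group (9 genes in 3 groups), 0 were met.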

How the results depend on the processing

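No difference of the 9 genes that passed its test changed sign under any setting run. The Tet1kd count of 3 called genes became 5 under the second deposited test (39.2% of all genes) and 6 with depth class as a term (64.6%). It was also 6 in the deeper libraries alone, where 51.1% of all genes were called. The Tet2kd count of 0 became 2 under the second deposited test (18.2% of all genes) and 1 among genes of mean 100 or more, where 1694 genes were called. It became 1 under limma (19.7% of all genes) and 3 with depth class as a term (35.5%). It was 1 in the deeper libraries (17.6% of all genes) and 1 in the shallower libraries (15.1%). All genes called in Tet2kd numbered 1638 as reported, 4171 under the second deposited test, 2796 under limma, 5037 with depth class as a term and 2503 in the deeper libraries. At an adjusted p of 0.1, called bins of these genes numbered 4 in Tet1kd (4.11% of all bins) and 2 in Tet2kd (3.95% of all bins). Leaving out 1 library at a time in limma gave 3 to 4 called genes in Tet1kd, 0 to 1 in Tet2kd and 3 to 4 between the knockdowns, and 7239 to 7414, 2219 to 2509 and 6696 to 6913 of all genes. The cause of these shifts was not tested. In the shallower libraries alone the calls of Mbd2 (adjusted p 0.0756) and Zbtb38 (0.102) between the knockdowns were lost. edgeR and DESeq2 were not run. No paired analysis was possible because the recovered libraries carry no replicate numbers. Depth limits Cxxc4 most, with 5 to 19 reads per group, and then Zbtb4.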
